A study of Mus musculus with 3 samples.

Results

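The genes described here are 10 genes tied to mammary progenitor cells and to the receptor RANK: the reported RANK effectors Id2, Ccnd1 and Rspo1, the luminal progenitor genes Sox9, Sox10, Kit and Aldh1a3, the stem cell genes Lgr5 and Procr, and the receptor gene Notch3. They were chosen by name, and every array probe whose accession matched 1 of these symbols was taken, which gave 10 genes of the 21154 with a named probe on the array, each with 1 probe. Primary cultures of 3 mammary tumors with MMTV-PyMT were grown for 24 h with or without RANK ligand (RL, also RANKL). MMTV-PyMT is the polyomavirus middle T oncogene under a mammary tumor virus promoter active in mammary epithelium. The methods describe acinar cultures from transplants of RANK+/+ or RANK−/− tumors and do not say which the RL cultures used. The medium of both groups was DMEM F12 with serum, antibiotics, cholera toxin, insulin and EGF. The labels name no strain or age. They give an RL dose of 1000 µg/mL and the methods a lower one. The cells came from digested tumors without a sort and were plated on Matrigel, so other cells of the tumor could be present. For each tumor, control and RL RNA were labeled with different dyes and hybridized to 1 Agilent mouse array, which gave 3 arrays and 6 channels, read in 1 scan of 1 slide. RL was in Cy3 for tumors 1 and 3 and in Cy5 for tumor 2, so a dye bias does not cancel in the mean of the 3 tumors.

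RANK is a receptor of the TNF receptor family, and RL binding activates NF-κB. In the mammary gland, progesterone induces RL in hormone-sensing luminal cells, and RL then acts on neighbouring cells with RANK, where it drives side branching and alveolar growth. Luminal progenitors and basal stem cells divide in response, and cyclin D1, the nuclear localization of Id2 and the Wnt agonist R-spondin 1 have each been placed downstream of RANK.

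The cells, labeled as primary tumor cultures, had the markers of epithelium. All 6 epithelial marker genes (Epcam, Krt8, Krt18, Krt19, Cdh1 and Cldn4) were well above background in the 3 control and 3 RL channels. The same held for the 6 fibroblast markers described below, so detection does not set epithelium apart from other cells. The median log2 ratio of RL over control of the epithelial markers was −0.02, and 0 of 6 passed the threshold in either direction. Krt18, a keratin of luminal cells, had log2 ratios of −0.72, 0.42 and −0.70 in tumors 1, 2 and 3, with the sign of tumor 2 opposite to the others, as its dye order was. Across 21721 genes, the ratios of tumors 1 and 3, which share a dye order, had a Pearson correlation of 0.452, against −0.11 for tumors 1 and 2 and −0.106 for tumors 2 and 3. Genes are not independent replicates, and tumor and dye order cannot be told apart in these values.

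Genes of the RANK and NF-κB pathway served as a check of the treatment. They were chosen with earlier results of these data known, so their values are not an independent test of it. The list held Tnfrsf11a, which encodes RANK, and 7 NF-κB targets or pathway genes (Nfkbia, Nfkbie, Nfkb2, Relb, Traf1, Birc3 and Icam1). Nfkbia, which encodes the inhibitor IκBα and is itself an NF-κB target, had log2 ratios of 1.47, 0.47 and 0.38 in tumors 1, 2 and 3, and Nfkbie had 1.31, 0.57 and 0.37. The 7 pathway genes were higher with RL in all 3 tumors, against 14.1% of all genes, with the highest ratio in tumor 1 for each. The median of the list was 0.59, and 1.15, 0.45 and 0.24 in tumors 1, 2 and 3, against −0.001 for all 21743 genes and transcripts tested. By limma with Benjamini-Hochberg adjustment over all genes, 0 of 8 passed the adjusted threshold of 0.05, against 0.0276% of all genes. By rank product, the other test named in the methods, 4 of 8 passed, against 87 of all genes. With a term for dye order, 7 of 8 passed, against 1.46% of all genes. That fit leaves 1 residual degree of freedom a gene beside 37.5 prior ones, so its errors are nearly the pooled ones of all genes (SE 0.0736 to 0.0779 for the tested progenitor genes), and each call below that rests on it has this limit. Tnfrsf11a had log2 ratios of 0.11, −0.08 and 0.14, with a mean of 0.06 (95% interval −0.11 to 0.22).

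Promoter sequence is shown for Id2 and Rspo1, the genes with the largest mean log2 ratio in each direction, and for Nfkbia, the gene of the RANK and NF-κB list with the largest one, so that the upstream bases can be read side by side. RefSeq windows of GRCm38.p6 were matched for 5 of the 10 genes (Id2, Kit, Notch3, Procr and Rspo1). The 250 bases before each start were searched on both strands for the κB consensus, the motif bound by NF-κB dimers. Each is given 5′ to 3′ on the strand of its gene, and capitals mark a match.
Id2, chr12:25096093-25096342, minus strand: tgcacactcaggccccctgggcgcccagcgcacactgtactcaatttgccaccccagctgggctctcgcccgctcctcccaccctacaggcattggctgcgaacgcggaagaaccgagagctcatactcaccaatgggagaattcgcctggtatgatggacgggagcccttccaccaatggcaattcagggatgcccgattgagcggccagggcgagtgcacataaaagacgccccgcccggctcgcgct
Rspo1, chr4:124986180-124986429, plus strand: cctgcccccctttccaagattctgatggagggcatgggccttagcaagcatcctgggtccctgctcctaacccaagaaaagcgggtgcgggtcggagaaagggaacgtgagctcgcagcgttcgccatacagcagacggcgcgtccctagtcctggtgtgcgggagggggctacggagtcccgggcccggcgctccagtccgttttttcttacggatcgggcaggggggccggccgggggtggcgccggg
Nfkbia, chr12:55492648-55492897, minus strand: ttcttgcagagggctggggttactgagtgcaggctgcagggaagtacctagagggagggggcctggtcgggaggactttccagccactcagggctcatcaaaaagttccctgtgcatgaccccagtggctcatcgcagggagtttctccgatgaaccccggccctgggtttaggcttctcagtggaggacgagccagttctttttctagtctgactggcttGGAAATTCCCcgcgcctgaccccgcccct
A match was found for 0 of the 5 progenitor genes and for 3 of the 7 genes of the RANK and NF-κB list with a window (Nfkbia, Nfkbie and Nfkb2), against 3.9% of all 32851 windows in the table. These counts are per gene and the share is per window, and a gene with several windows, such as Nfkb2, counted once. In Nfkbia the match began 29 bases before the start. The absence of a match says only that these letters are not in the window.

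Of the 10 progenitor genes, 9 were well above background in all 6 channels and were tested, and Lgr5 was not tested. By limma, 0 of 9 passed the adjusted threshold in either direction. Over all 21743 genes and transcripts, 6 passed (0.0276%), 1 higher and 5 lower with RL. At an unadjusted p under 0.05, 4 of 9 passed, 1 higher (Rspo1) and 3 lower (Id2, Kit and Notch3), against 1549 of all (7.12%). The same 4 genes were the ones with 1 sign in all 3 tumors, 1 higher (14.1% of all genes) and 3 lower (13.5% of all genes). Under median centering, 1 was higher and 1 lower in all 3 tumors. With a term for dye order, 318 genes passed (1.46%), 1 of them among the 9, Id2, lower with RL. By rank product, 87 genes and 0 of 9 passed. The median log2 ratio of the 9 genes was −0.05, and −0.09, −0.20 and −0.09 in tumors 1, 2 and 3.

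**Figure D1:**
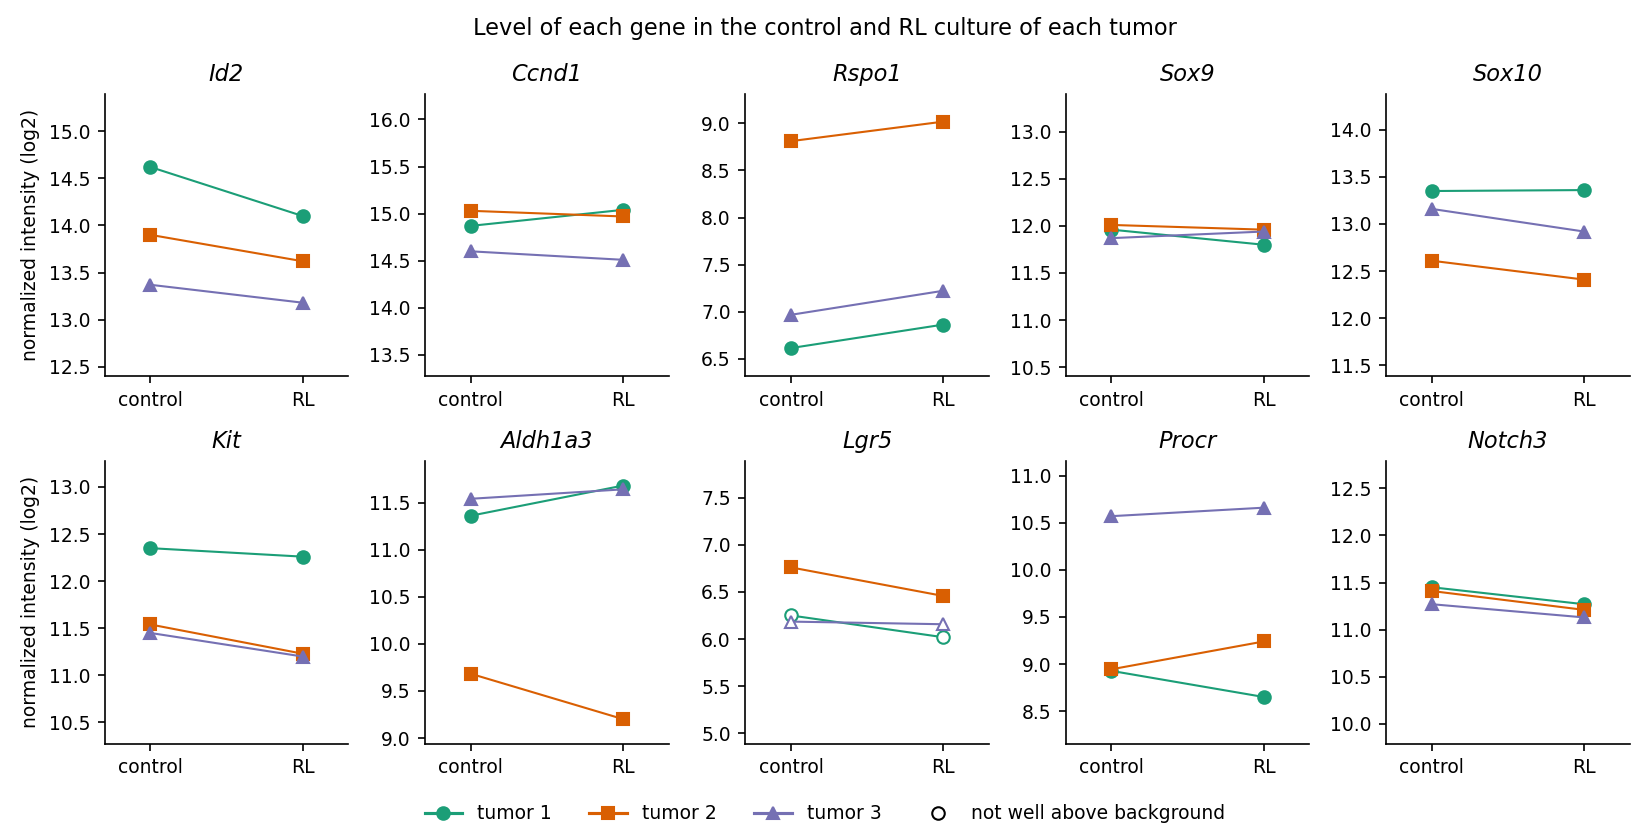
Normalized log2 intensity of each gene (y axis, 1 panel a gene, each with its own range) in the control and RL culture of each tumor (x axis), with lines joining the cultures of 1 tumor and open symbols for channels not well above background. Id2 is lower with RL in all 3 tumors, and the levels of Rspo1, Aldh1a3 and Procr are set apart by tumor more than by RL.

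Id2, a helix-loop-helix protein without a DNA-binding domain that holds back differentiation factors, had the mean log2 ratio largest in size among the 9 tested genes. Its log2 intensity was 14.62, 13.90 and 13.37 in the control cultures of tumors 1, 2 and 3, and 14.10, 13.62 and 13.18 with RL. Each RL culture was below its own control, while control and RL levels overlapped across tumors. The log2 ratios were −0.52, −0.28 and −0.19, a mean of −0.33 (SE 0.08, n = 3 tumors; 95% interval −0.52 to −0.14), or 0.795-fold of control. The adjusted p was 0.387 by limma, and 0.0195 with the dye order term, where the ratio was −0.32 and the error nearly the pooled one. Over the 17 alternatives it ran from 0.0087 to 0.9999, with the proportion of false positives standing in for it in the rank product. Without tumor 2, Id2 also passed, with an adjusted p of 0.0087, but the remaining arrays both have RL in Cy3, so RL and dye cannot be told apart there. The sign was negative under the 10 alternatives that moved the ratio, 3 of which leave out a tumor. Other members of the Id family, Id1, Id3 and Id4, had mean log2 ratios of −0.04, 0.05 and 0.04, and 0 of 3 passed.

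Ccnd1 encodes cyclin D1, which with Cdk4 or Cdk6 drives cells from G1 into S phase. In the control cultures its log2 intensity was 14.87, 15.03 and 14.60, and it was 15.04, 14.97 and 14.51 with RL. The log2 ratios of 0.16, −0.06 and −0.09 gave a mean of 0.004 (95% interval −0.17 to 0.18), a fold of 1.0 with limits of 0.888 and 1.13. The probe was saturated on 0 of 3 arrays in either channel. Of its relatives, cyclins D2 and D3, the kinases Cdk4 and Cdk6 and the inhibitors Cdkn1a, Cdkn1b, Cdkn2a and Cdkn2b, 0 of 8 passed, and 0 of 8 had 1 sign in all 3 tumors. Their median log2 ratio was −0.03, and the largest in size was −0.11 for Cdkn2b.

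Rspo1 encodes R-spondin 1, a secreted protein that binds Lgr receptors and strengthens Wnt signaling. It was the only tested gene of the 9 higher with RL in all 3 tumors. Its log2 intensity was 6.62, 8.81 and 6.97 in the control cultures and 6.86, 9.02 and 7.22 with RL. The log2 ratios of 0.25, 0.21 and 0.25 were close to each other, with a mean of 0.24 (SE 0.07, n = 3; 95% interval 0.08 to 0.39), or 1.18-fold, and an adjusted p of 0.463. The probe was dim in tumors 1 and 3. There, the RL channel read a median of 67 over a local background of 30 in tumor 1 and 96 over 34 in tumor 3, and the normexp offset of 50 compresses the ratio of such a probe. The mean was 0.48 with the scanner software's own processed signals, and 0.35 with the offset at 0, and neither passed.

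The Wnt genes around Rspo1 did not pass either. Of 17 genes, 14 were tested and 0 passed. In all 3 tumors 2 were higher and 3 were lower, against 14.1% and 13.5% of all genes. The receptors Lgr4 and Lgr6 had mean log2 ratios of −0.15 and −0.02. Rnf43, a ligase that removes Wnt receptors and is held back by R-spondins, had the mean log2 ratio largest in size (−0.21), with −0.31, −0.10 and −0.24 in tumors 1, 2 and 3. Tcf7, a Wnt transcription factor, had 0.46, 0.16 and −0.01. Axin2, a Wnt target used as a readout, was not well above background in all 3 channels of either group and was not tested, and the same held for Rspo2 and Rspo4.

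Kit, a receptor tyrosine kinase of luminal progenitors, had a mean over its 2 spots that was lower with RL in all 3 tumors. Its log2 intensity was 12.35, 11.54 and 11.45 in the control cultures and 12.26, 11.23 and 11.20 with RL. The ratios of −0.09, −0.31 and −0.25 gave a mean of −0.22 (SE 0.07, n = 3; 95% interval −0.38 to −0.05), with an adjusted p of 0.565. In tumor 1, 1 of the 2 spots was above 0 (0.03, the other −0.21). The spots differed with an SD of 0.165, 0.0224 and 0.174 in tumors 1, 2 and 3. Kit also marks mast cells. Of 7 mast cell markers, 1 was tested (Tpsb2, mean log2 ratio −0.05). Hdc was well above background in 2 control and 2 RL channels, Mcpt4 in 1 and 1, and Cpa3, Cma1, Ms4a2 and Fcer1a in 0 and 0. The intensity of Tpsb2 was 186, 303 and 289 in the controls and 174, 341 and 246 with RL. Its ligand gene Kitl had a mean of 0.02.

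Sox9, a transcription factor of luminal progenitors and basal stem cells, was measured by 10 spots on every array. Its log2 intensity lay between 11.80 and 12.01 in all 6 cultures, the narrowest range of tumor levels among the tested genes (0.1 on the log2 scale). The log2 ratio of the spots was −0.16 ± 0.065, −0.05 ± 0.0625 and 0.08 ± 0.0636 on the arrays of tumors 1, 2 and 3 (mean ± SD, n = 10 spots each). All 10 spots of tumor 1 were below 0 and 9 of the 10 spots of tumor 3 above it, while the spots of tumor 2, from −0.125 to 0.0518, overlapped those of both. These spots are technical repeats of 1 hybridization and carry no spread between cultures. Over 278 probes with 10 spots, the median spot SD was 0.062, 0.062 and 0.0659. The mean over tumors was −0.04 (95% interval −0.21 to 0.12), with an adjusted p of 0.93.

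**Figure D2:**
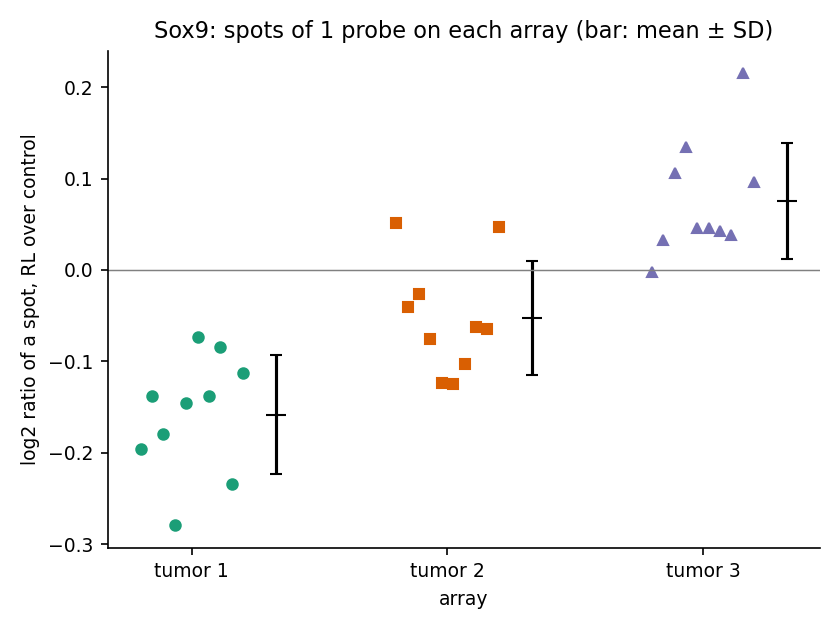
Log2 ratio of RL over control (y axis) of each of the 10 spots of the Sox9 probe on the array of each tumor (x axis), with the mean ± SD beside them. The spots of tumor 1 are all below 0, and 9 of 10 spots of tumor 3 are above 0.

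Sox10, a transcription factor of luminal progenitors and of neural crest derivatives, had a log2 intensity of 13.35, 12.61 and 13.16 in the control cultures and 13.36, 12.41 and 12.92 with RL. The ratio was 0.001 in tumor 1 and −0.20 and −0.24 in tumors 2 and 3, with a mean of −0.15 (95% interval −0.32 to 0.03) and an adjusted p of 0.759. Of the 6 glial and melanocyte markers tested, 0 passed, with a median of 0.04 and the largest mean in size for S100b, −0.19. Dct was not well above background in any channel. The list's summed intensity was 15900, 15400 and 14400 in the controls and 16100, 16100 and 14900 with RL. Of other Sox genes, 3 of 8 were tested (Sox4, Sox5 and Sox11), and 0 passed. Sox11 had 0.24, 0.17 and 0.08.

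Aldh1a3, which makes retinoic acid and accounts for much of the ALDH activity used to sort luminal progenitors, varied most between tumors in its ratio. Its log2 intensity was 11.36, 9.68 and 11.54 in the control cultures and 11.68, 9.20 and 11.64 with RL. The log2 ratios were 0.32, −0.48 and 0.11, negative only in tumor 2, the array with the opposite dye order. The mean of −0.02 had a 95% interval of −0.32 to 0.28. Without tumor 2 the ratio was 0.22, and with the dye order term it was −0.13. Of 10 other retinoid genes, 8 were tested and 0 passed, with a median of −0.10. Crabp2, a retinoic acid carrier, had log2 ratios of −0.42, −0.30 and −0.16 (mean −0.29, adjusted p 0.402 by limma and 0.0311 with the dye order term). The other retinaldehyde dehydrogenase tested, Aldh1a1, had −0.09, −0.16 and −0.15.

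Of 11 further luminal progenitor genes, all were tested and 0 passed. Of these 11, 1 was higher in all 3 tumors and 4 were lower in all 3, against 14.1% and 13.5% of all genes. With the dye order term 2 of them passed, against 1.46% of all genes. Plet1, which encodes a surface protein, had −0.57, −0.30 and −0.27, and Tspan8, a tetraspanin, had −0.87, −0.25 and −0.24. Both had an adjusted p below the threshold with the dye order term, at 0.00488 and 0.00542, against 0.26 and 0.416 without it, and rest there on 1 residual degree of freedom. Elf5, which directs alveolar differentiation, had −0.18, −0.18 and −0.06. Gata3, a luminal transcription factor, had 0.11, −0.33 and 0.42. Itga2, an integrin used to sort luminal progenitors, had 0.63, −0.18 and 0.29, and the sign of tumor 2 was again the opposite.

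Lgr5, a receptor for R-spondins that marks stem cells in several epithelia, was at the limit of detection. Its median intensity in the control channel was 81.5 over a local background of 67 in tumor 1, 61.5 over 34 in tumor 2 and 84 over 73.5 in tumor 3. With RL it was 26 over 30, 104.5 over 71 and 33.5 over 34. The probe was well above background in both channels of tumor 2 and in neither channel of tumors 1 and 3, so no ratio over the tumors is given.

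Procr encodes the protein C receptor, a marker of basal mammary stem cells that endothelial cells also carry. Its log2 intensity was 8.93, 8.94 and 10.57 in the control cultures and 8.65, 9.24 and 10.66 with RL, highest in tumor 3 in both. The ratios were −0.28, 0.29 and 0.09, with a mean of 0.04 (95% interval −0.20 to 0.27), or 0.10 with the dye order term. Of 6 endothelial markers, 3 were tested (Pecam1, Kdr and Esam), 0 passed, the largest mean in size was 0.16 for Esam, and Tek was not well above background in any channel. Their summed intensity was 2260, 2250 and 2110 in the controls and 2500, 2200 and 2370 with RL, of which 79% to 87.8% was Kdr. Esam was highest in tumor 3, as Procr was, with a log2 intensity of 7.42, 6.99 and 8.08 in the controls and 7.48, 7.29 and 8.19 with RL. Pecam1 was not, with 7.45, 7.21 and 7.43 in the controls and 7.27, 7.35 and 7.12 with RL, and Kdr was lowest in tumor 3 among the controls and highest in tumor 1 with RL. The summed intensity of the 6 fibroblast markers was 8930, 4080 and 17200 in the controls and 7350, 4360 and 16700 with RL, also highest in tumor 3. The part of either cell type in the Procr level was not tested. In such bulk samples, more cells of a type and more RNA per cell cannot be told apart.

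Basal genes did not pass. Of 10 genes, 9 were tested and 0 passed. Of these 9, 1 was higher in all 3 tumors and 0 were lower in all 3, against 14.1% and 13.5% of all genes. The median was −0.07. Krt14, the keratin of basal cells, had 0.04, −0.14 and −0.47, and Acta2 had −0.42, 0.08 and −0.05.

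Notch3, a receptor of the Notch family found in luminal progenitors and in pericytes, had the most even ratios among the genes lower with RL. Control cultures had a log2 intensity of 11.45, 11.41 and 11.27, and RL cultures had 11.27, 11.21 and 11.13. The ratios were −0.18, −0.20 and −0.14, with a mean of −0.17 (SE 0.07, n = 3; 95% interval −0.33 to −0.02), or 0.887-fold, and an adjusted p of 0.659. The SD over tumors, 0.03, was below the moderated error because limma draws each gene's spread toward that of all genes. Of 13 Notch pathway genes, 11 were tested and 0 passed, with a median of 0.07. The ligands Dll1 and Jag1 had the largest mean log2 ratios in either direction, −0.65, −0.10 and −0.14 for Dll1 and 0.57, 0.09 and 0.05 for Jag1. The target Hey1 had −0.30, −0.40 and 0.02, and Hes1 had 0.18, −0.04 and 0.30. Of 6 pericyte and smooth muscle markers, 5 were tested and 0 passed. Kcnj8 was lower in each tumor (−0.28, −0.17 and −0.36), and Rgs5 was near 0 in each (0.0004, 0.04 and 0.05). Both probes were dim, with log2 intensities from 6.35 to 6.96 for Kcnj8 and from 6.23 to 6.75 for Rgs5. The list's summed intensity was 31400, 18300 and 28500 in the controls and 23100, 25400 and 20600 with RL. Of it, 94.8% to 98.2% was Mcam, with log2 ratios of −0.45, 0.48 and −0.50. The sign of Mcam in tumor 2, the array with the opposite dye order, was the opposite. With the dye order term its ratio was 0.004. Pdgfrb had −0.20, 0.18 and −0.12, and Cspg4 had 0.16, −0.09 and 0.03. The part of these cells in the Notch3 ratio was not tested. Of the leukocyte markers, 5 of 6 were tested and 0 passed, with a median of 0.03 and the largest mean for Ptprc, 0.05. The 6 fibroblast markers, of which 0 passed, had a median of −0.06 and the largest mean in size for Pdgfra, −0.19.

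**Figure D3:**
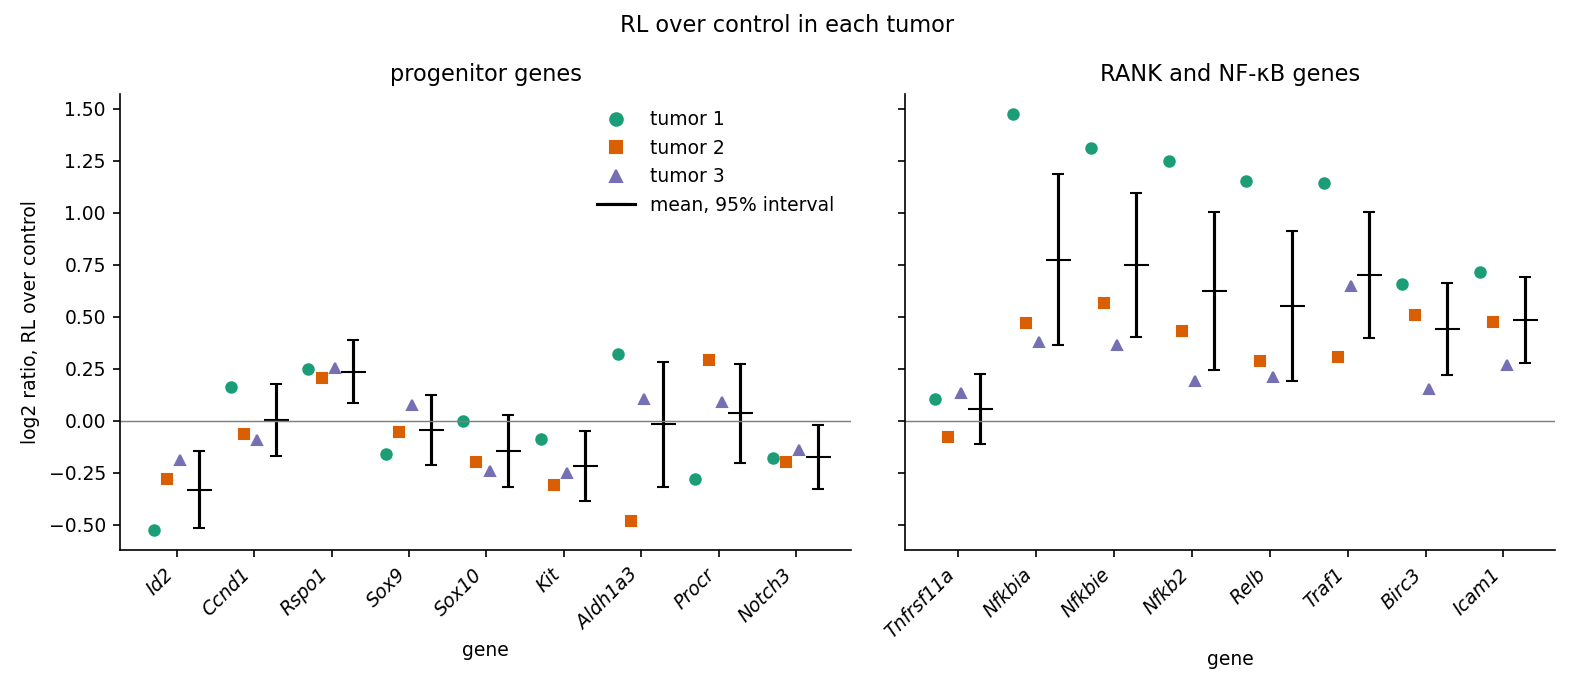
Log2 ratio of RL over control (y axis) in tumors 1, 2 and 3 for the 9 tested progenitor genes and the 8 genes of the RANK and NF-κB list (x axis), with the mean and the 95% interval of the moderated fit beside them. The progenitor genes lie between −0.52 and 0.32, and 7 of the 8 genes on the right are above 0 in all 3 tumors.

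The lowest mean of the 7 NF-κB genes higher in all 3 tumors was 0.44 (Birc3), while the means of the 9 tested genes ran from −0.33 to 0.24. Without tumor 1 the lowest of the 7 was 0.25 (Relb), beside means of −0.28 for Kit and 0.23 for Rspo1, and in tumor 3 the median of the RANK and NF-κB list was 0.24, beside 0.25 for Rspo1. Tumor 1 had the highest ratio for each of those 7 genes. It also had the lowest Id2 ratio, −0.52, whereas the Kit ratio was nearest to 0 in that tumor, at −0.09.

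Levels of several progenitor genes differed more between tumors than between cultures. The mean level of both cultures of Rspo1 spanned 2.17 on the log2 scale over the 3 tumors (4.52-fold), that of Aldh1a3 2.15 (4.43-fold) and that of Procr 1.82 (3.53-fold), at the 98.6th, 98.5th and 97.9th percentile of 21721 genes. The Rspo1 probe was dim in tumors 1 and 3, so the offset compresses its fold between tumors as well. In 7 of 9 tested genes the range over tumors was above the largest single RL ratio, as in 69.9% of all genes. The 9 genes had a median range of 0.977, against 0.272 for all genes. All genes were not matched to the 9 by level, and the offset compresses the range of any dim ones. Rspo1 was highest in tumor 2, Aldh1a3 lowest there, and Procr highest in tumor 3. Id2, Kit, Sox10 and Notch3, 4 of the 9 tested genes, had their highest control level in tumor 1, as did 7 of the 11 other luminal progenitor genes, 0 of the 9 basal genes and 35.8% of all 21721 genes. The summed intensity of the luminal progenitor list was 190000, 79700 and 76100 in the controls and 163000, 71500 and 76300 with RL. Plet1 was the brightest gene of that list in every culture, so the sum leans on 1 gene. Its log2 intensity was 16.29, 14.43 and 14.5 in the controls and 15.72, 14.13 and 14.23 with RL. Each tumor had 1 culture a group, so tumor, dye order and array cannot be told apart in these levels.

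**Figure D4:**
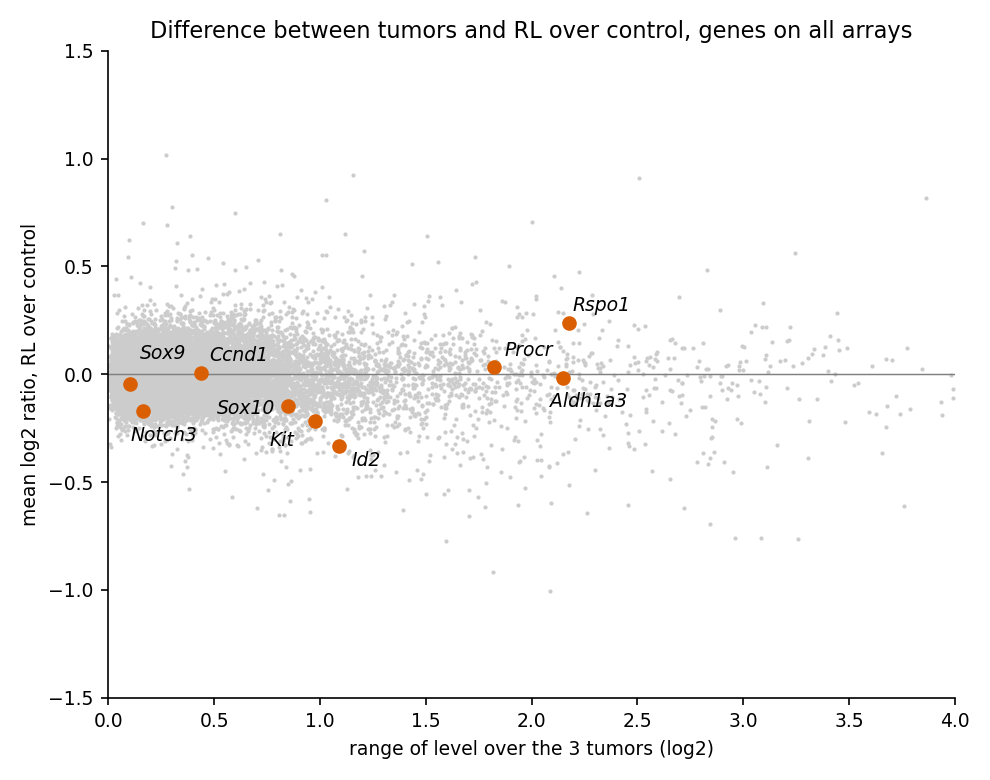
Range of the mean level of both cultures over the 3 tumors (x axis, log2) against the mean log2 ratio of RL over control (y axis) for the 21721 genes with a value on every array (grey) and the 9 progenitor genes (orange), with 34 genes outside the axes. Rspo1, Aldh1a3 and Procr lie far to the right, and no progenitor gene has a mean ratio beyond −0.33 or 0.24.

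Genes with a pattern like that of Id2 were sought among the 14033 other named genes with a value on every array, by the root mean square difference of their 3 log2 ratios from those of Id2. The 5 nearest were Matn2, Dpp4, Atp6v0a4, Per2 and Tmem37, with differences of 0.0161, 0.0174, 0.0198, 0.032 and 0.0438. Matn2 had log2 ratios of −0.50, −0.27 and −0.18 in tumors 1, 2 and 3, and Per2, a gene of the circadian clock, had −0.56, −0.29 and −0.23. The adjusted p of the 5 by limma ran from 0.334 to 0.411. The likeness rests on 3 arrays.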

How the data were processed

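Control and RL RNA of each of 3 PyMT tumor cultures shared 1 two-color array. The authors read the arrays with Agilent Feature Extraction 10.7.3.1, per the submitters' processing notes, and deposited median spot and local background intensities without correction, processed intensities, and log10 ratios of Cy5 over Cy3. A table of log2 ratios that the authors normalized was Cy5 over Cy3 when set against the scanner values of 21743 genes. Pearson's r was 0.961, 0.954 and 0.96, with slopes of 1.15, 1.17 and 1.15 and column medians of 0.00244, −0.0011 and 0.00069. The methods name normexp, loess by position and intensity, and Aquantile for the mouse arrays, but no offset or span. Whether these steps gave that table was not tested. The paper's data availability statement names another series for its mouse arrays, and these were matched to the methods by label.

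R 4.3.3 and limma 3.58.1 were used. Median intensities were corrected with normexp (offset 50) and normalized by intensity loess, loess on row and column (span 0.1) and Aquantile. Control spots (3671) and outlier spots (204, 195 and 223) were left out, and spots of 1 probe averaged. Median intensities were 96.5, 43 and 100.5 in control and 42, 99 and 45 in RL channels, and the share of probes above background was 54.6% to 56.2%. The number of arrays limits precision. RefSeq accessions of GRCm38.p6 named 28026 of 55681 probes (21154 symbols), though the array was designed on another build. Probes were kept when well above background in each of the 3 control channels or each of the 3 RL channels, and the brightest kept probe stood for a gene. The ratio pairs cultures by tumor, as the labels do, and was fitted with lmFit and eBayes (residual degrees of freedom 2, prior 6.77), two-sided, adjusted over all genes tested. Summed intensities add the normalized intensities of a list's tested genes.

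Named were all members, list genes past the threshold or, where none was, those with the largest mean change, and the 5 genes most like Id2. Further list genes were named after their values were seen. Members and lists were chosen with earlier results of these data known. Alternatives covered the test, background correction, normalization, probe filter and averaging, outlier spots, the authors' ratios and each tumor left out. The rank product (1000 permutations, seed 1) was written for this work. The programs were tested on simulated data. A marker gene of the glial and melanocyte list is not reported here.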

Additional observations from a re-analysis of the deposited data

How the results depend on the processing

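Of the 17 alternatives, 7 left the log2 ratios of the 9 tested genes as they were and bear only on calls. They were the rank product, unpaired channels, no Aquantile, both other filters on dim probes, the mean over probes and outlier spots kept. All but outlier spots kept do so by construction. Under the other 10, 78 of 90 ratios kept their direction and their side of the threshold. Id2, Kit, Notch3 and Sox10 stayed lower and Rspo1 higher with RL under these 10. Id2 passed with the dye order term (−0.32) and without tumor 2 (from −0.40 to −0.23 over the tumors left out). Ccnd1 changed sign with the dye order term (−0.012), without background correction (−0.0071), with offset 0 (−0.0065), with processed signals (−0.0098) and with median centering (−0.19), and ran from −0.076 to 0.051 with each tumor left out. Procr was −0.11 with median centering and from −0.093 to 0.19 with each tumor left out. With each tumor left out, Sox9 ran from −0.11 to 0.012 and Aldh1a3 from −0.19 to 0.22. Median centering moved the median of all genes to −0.11, so its values are relative to that shift: Id2 was −0.53, Kit −0.39, Notch3 −0.33, Sox10 −0.31, Sox9 −0.20, Aldh1a3 −0.21 and Rspo1 0.31.

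Against 6 genes past the threshold, there were 318 with the dye order term, 87 by rank product, 0 with the 6 channels unpaired, 16 without background correction, 11 with offset 0, 0 with processed signals, 0 with median centering, 3 without a filter on dim probes, and from 3 to 1556 with each tumor left out. The highest count came without tumor 2, when both arrays have RL in Cy3 and RL and dye cannot be told apart. Genes of the 9 past the threshold numbered 1 with the dye order term and from 0 to 1 with a tumor left out. Those higher in all tumors kept numbered from 1 to 2, and those lower from 3 to 5, with 1 lower under median centering. The cause of these differences was not tested, beyond the fewer arrays or genes in some of them. Dim probes have ratios limited by their signal over background. Among the progenitor genes these were Rspo1 and Lgr5, and among the list genes named they included Aldh1a1, Kcnj8, Rgs5, Cspg4 and Ptprc.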
